A study of Mus musculus with 86 samples.

Results

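The data described here are the read counts of 9 genes known as markers of the layers of the cerebral cortex, Cux2, Rorb, Rasgrf2, Fezf2, Bcl11b, Foxp2, Tshz2, Etv1 and Tle4, in 3 brain regions of wild house mice. They were chosen by name, and all 9 were found by their Ensembl identifiers among the 35275 genes of the count table. In every comparison below, all 9 passed the filter on low counts. For the description they were divided by textbook knowledge into 3 upper layer genes (Cux2, Rorb and Rasgrf2) and 6 deep layer genes (the others).

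RNA was sequenced from punches of hippocampus, hypothalamus and prefrontal cortex of 29 free-living mice of both sexes that had either small or large social network sizes, labelled as low or high gregariousness. The animals were wild Mus musculus, and the labels name no treatment, transgene or allele and give no ages, so the groups are defined by sex, network size and region. The prefrontal cortex gave 29 libraries, the hippocampus 29 and the hypothalamus 28, each from 1 animal. In each region there were 7 females with small and 7 with large network sizes and 7 males with large network sizes, while the males with small network sizes numbered 8 in the prefrontal cortex and hippocampus and 7 in the hypothalamus.

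The cortex is built of layers of glutamatergic projection neurons. Upper layer neurons mostly project to other parts of the cortex, whereas deep layer neurons project mainly to the thalamus, the brainstem and the spinal cord. Transcription factors that are set up during development keep these classes apart, and many of them remain expressed in the adult. Cux2 is a homeodomain factor of upper layer neurons, Rorb is a nuclear receptor of neurons that receive thalamic input, and Rasgrf2 is an exchange factor that activates Ras. Fezf2 and Bcl11b are zinc finger factors of neurons that project below the cortex, Etv1 is an ETS factor and Tshz2 a zinc finger homeobox factor of deep layer neurons, and Foxp2, a forkhead factor, and Tle4, a corepressor of the Groucho family, mark neurons that project to the thalamus. Most of these genes also have other sites of expression, for example Bcl11b and Foxp2 in the projection neurons of the striatum.

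In the GENCODE vM21 annotation of GRCm38, Cux2 lies at chr5:121856366-122050102 on the minus strand, Rorb at chr19:18930605-19111196 (minus), Rasgrf2 at chr13:91880400-92131656 (minus) and Fezf2 at chr14:12342094-12348189 (minus). Bcl11b lies at chr12:107910403-108003602 (minus), Etv1 at chr12:38779380-38870484 (plus), Tshz2 at chr2:169633013-170071816 (plus), Foxp2 at chr6:14901349-15441977 (plus) and Tle4 at chr19:14448150-14598051 (minus). In this annotation, the exons of 8 of the 9 genes overlapped no other annotated gene. Of the 7781 exon bases of Tshz2, 5251 were shared with antisense genes, which held at most 8 counts in any library. The strand setting of the counting is not given in the sources used here, so how reads in the shared bases of Tshz2 were counted is not known.

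RefSeq start sites of 8 of the 9 genes were matched, with 12 windows of 250 bases upstream of a start in GRCm38.p6. The first of the windows of Cux2, Rorb and Tle4 is shown for each gene because these genes represent both layer classes and include a pair that varied together in the cortex (Cux2 and Rorb). Capitals mark a GC box, spelled GGGCGG and searched on both strands (CCGCCC on the other strand), and lower case is the rest of the window. The windows lie at chr5:122049852-122050101 for Cux2, at chr19:19111197-19111446 for Rorb and at chr19:14598184-14598433 for Tle4, all on the minus strand and written 5′ to 3′ in the direction of transcription. The window of Cux2 is upstream of a RefSeq start but lies inside the GENCODE span of the gene given above. Those of Rorb and Tle4 lie outside the GENCODE spans.
Cux2: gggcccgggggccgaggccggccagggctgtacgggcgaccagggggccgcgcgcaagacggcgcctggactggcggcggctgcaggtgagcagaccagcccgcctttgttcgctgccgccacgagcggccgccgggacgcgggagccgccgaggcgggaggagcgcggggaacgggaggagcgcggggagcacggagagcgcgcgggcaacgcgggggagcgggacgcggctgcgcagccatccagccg
Rorb: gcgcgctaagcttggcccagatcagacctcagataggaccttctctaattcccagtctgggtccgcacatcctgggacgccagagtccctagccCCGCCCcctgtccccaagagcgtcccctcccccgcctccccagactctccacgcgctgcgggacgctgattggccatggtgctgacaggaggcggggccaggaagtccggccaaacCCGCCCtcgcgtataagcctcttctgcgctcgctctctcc
Tle4: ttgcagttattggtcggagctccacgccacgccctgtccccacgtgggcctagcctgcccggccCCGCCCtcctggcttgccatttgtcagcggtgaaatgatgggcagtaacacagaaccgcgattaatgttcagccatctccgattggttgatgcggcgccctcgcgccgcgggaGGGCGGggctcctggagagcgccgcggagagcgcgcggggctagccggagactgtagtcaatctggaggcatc
A GC box occurred 2 times in the window of Rorb and 2 times in that of Tle4, and these letters were not in that of Cux2. Of 32851 RefSeq windows of the same length, 32.7% held at least 1 GC box. Each match is a description of these letters. The Cux2 window had 40 CpG dinucleotides and 80.0% G and C, against medians of 6 CpG and 52.4% over all windows. Each of these 3 genes had a second window, not printed. That of Cux2 (chr5:122047826-122048075) had 3 CpG and 55.2% G and C and no GC box, that of Rorb had no GC box and that of Tle4 had 1.

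Total counts lay between 33711824 and 81865801 per library, with a median of 44778419, and the lowest count of any of the 9 genes in any library was 91 (Fezf2 in a hypothalamus library). Levels are given as CPM (counts scaled to a common library size) scaled by the TMM method of edgeR over all 86 libraries. The marker genes of pallial glutamatergic and of hypothalamic neurons followed the region labels. The summed level of 7 genes of pallial glutamatergic neurons was 4798 to 8029 CPM in the prefrontal cortex, 3209 to 4912 in the hippocampus and 598 to 1712 in the hypothalamus. The sum of 11 hypothalamic neuron genes was 3.18 to 8.23 CPM in the prefrontal cortex against 180 to 1576 in the hypothalamus. In the hippocampus it had a median of 8.63 CPM but reached from 5.03 up to 87.95 CPM. A list of 8 hippocampal neuron genes separated the regions less well. Its sum was 455 to 717 CPM in the hippocampus (median 579), 391 to 610 in the hypothalamus (median 494) and 290 to 503 in the prefrontal cortex (median 331). Within the prefrontal cortex, 3 libraries (animals 10, 20 and 27) were over 1.5 times the median in the sum of 10 genes of striatal projection neurons. This sum was 1451, 1323 and 948 CPM there against a median of 591 and a lowest value of 446. The next library, that of animal 15, had 830 CPM, so animal 27 lay closer to it than to animals 10 and 20. All 10 of these striatal genes were detected in the cortex, so none of the defining markers was at 0.

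The 3 upper layer genes were higher in the prefrontal cortex than in the hippocampus in every animal. Cux2 ranged from 103 to 347 CPM in the prefrontal cortex (median 175), from 57.1 to 93.5 CPM in the hippocampus (median 71.7) and from 47.6 to 90.0 CPM in the hypothalamus (median 61.7). The lowest cortex library was above every library of the other regions, whose ranges overlapped each other. Rorb ranged from 63.9 to 147 CPM in the prefrontal cortex (median 78.3), from 26.9 to 55.4 CPM in the hippocampus (median 39.1) and from 23.6 to 66.6 CPM in the hypothalamus (median 32.6). All cortex libraries of Rorb were above all hippocampus libraries, and 2 hypothalamus libraries (animals 6 and 10, at 64.4 and 66.6 CPM) reached into the cortex range. In that of animal 6, 8 genes of thalamic neurons, where Rorb is also expressed, summed to 1427 CPM against at most 840 CPM in the other hypothalamus libraries, and in that of animal 10 the hypothalamic neuron genes summed to 180 CPM against at least 298 CPM in the others. Their part in these levels was not tested. Rasgrf2 ranged from 167 to 344 CPM in the prefrontal cortex (median 233), from 89.6 to 149 CPM in the hippocampus (median 124) and from 131 to 250 CPM in the hypothalamus (median 193). Its order was thus prefrontal cortex, hypothalamus, hippocampus, with an overlap between cortex and hypothalamus.

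Among the deep layer genes, Fezf2 and Etv1 were nearly as high or higher in the hippocampus as in the prefrontal cortex and were low in the hypothalamus. Fezf2 ranged from 38.2 to 57.7 CPM in the prefrontal cortex (median 46.3), from 29.03 to 47.4 CPM in the hippocampus (median 38.3) and from 1.97 to 6.10 CPM in the hypothalamus (median 3.58). The hypothalamus was below both other regions in every library. Etv1 ranged from 57.0 to 88.9 CPM in the prefrontal cortex (median 77.1), from 87.8 to 201 CPM in the hippocampus (median 105) and from 23.4 to 47.7 CPM in the hypothalamus (median 33.3). The hippocampus was above the cortex in 29 of 29 animals, and its highest library, that of animal 23 at 201 CPM, was well above the next one at 134 CPM. Bcl11b ranged from 68.2 to 138 CPM in the prefrontal cortex (median 90.9), from 83.0 to 132 CPM in the hippocampus (median 106) and from 46.6 to 112 CPM in the hypothalamus (median 74.2). These 3 ranges overlapped.

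The remaining deep layer genes were not highest in the cortex. Tshz2 ranged from 4.64 to 10.1 CPM in the prefrontal cortex (median 6.19), from 9.72 to 16.7 CPM in the hippocampus (median 12.8) and from 9.35 to 18.5 CPM in the hypothalamus (median 11.98). It was lowest in the cortex in every animal. Foxp2 ranged from 11.6 to 31.9 CPM in the prefrontal cortex (median 16.9), from 14.0 to 28.6 CPM in the hippocampus (median 19.7) and from 26.2 to 49.9 CPM in the hypothalamus (median 40.5). The hypothalamus was above both other regions in 28 of 28 animals. The summed level of the 10 striatal genes was also highest in the hypothalamus, with a median of 1573 CPM against 591 in the prefrontal cortex and 504 in the hippocampus, and its part in the level of Foxp2 was not tested. Tle4 ranged from 59.2 to 85.98 CPM in the prefrontal cortex (median 69.4), from 50.1 to 71.5 CPM in the hippocampus (median 60.1) and from 61.5 to 94.5 CPM in the hypothalamus (median 75.3), with all 3 ranges overlapping. In bulk tissue, fewer cells of a type and less RNA per cell cannot be told apart.

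**Figure D1:**
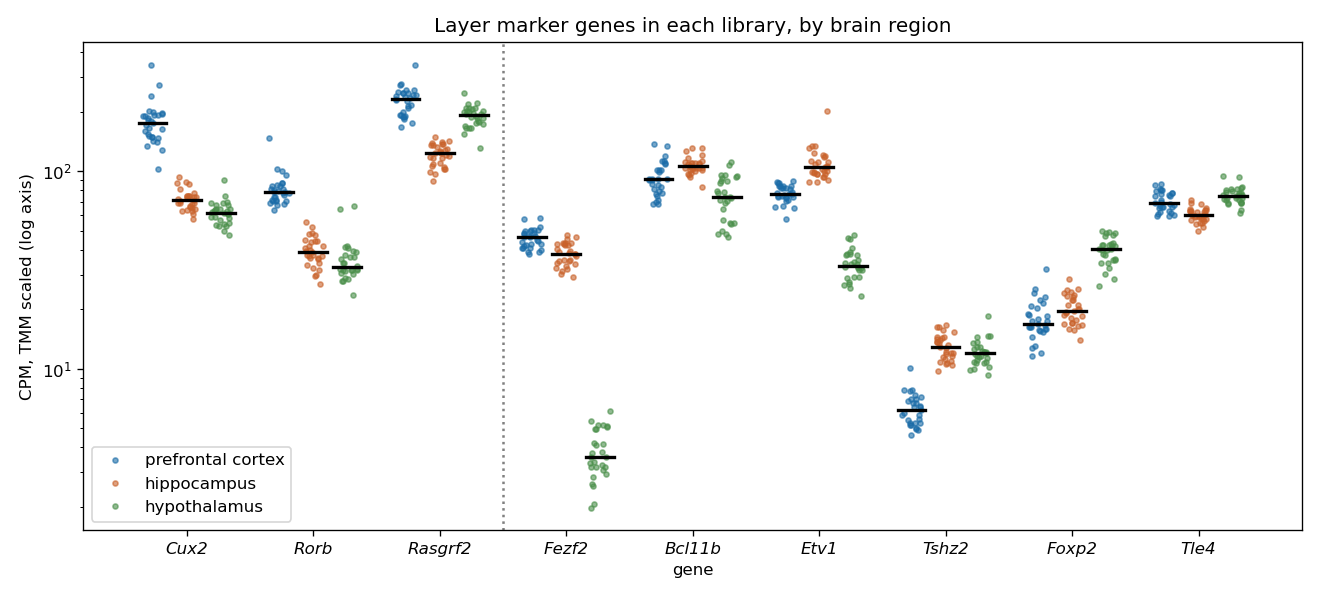
CPM scaled by TMM (log axis) of the 9 genes in each of the 86 libraries, with a black bar at the median of each region and a dotted line between the upper layer genes (left) and the deep layer genes (right). Cux2 has its 29 cortex libraries above all others, and Fezf2 has its 28 hypothalamus libraries below all others.

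Per kilobase of annotated exon, which allows levels to be compared between genes, the medians in the prefrontal cortex were 25.2 CPM per kb for Rasgrf2, 17.4 for Cux2, 15.2 for Fezf2, 12.2 for Tle4 and 11.2 for Bcl11b. Rorb followed at 7.07 CPM per kb and Etv1 at 5.80, and Foxp2 and Tshz2 were lowest at 1.03 and 0.796. The value of Tshz2 uses all its 7781 exon bases, of which 5251 are shared with antisense genes. Whether reads in the shared bases were counted is not known, so its order against Foxp2 is uncertain. The most abundant and the least abundant of these genes in the cortex therefore belonged to different layer classes.

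Regions were compared with the quasi-likelihood test of edgeR and Benjamini-Hochberg adjustment over 19873 genes. Between prefrontal cortex and hippocampus, 5 of the 9 genes were higher in the cortex and 4 lower, at an adjusted p under 0.05. Of all genes tested, 30.5% were higher and 32.8% lower by the same rule. All 3 upper layer genes were higher, and the deep layer genes were divided, with 2 higher and 4 lower. The log2 fold change of cortex against hippocampus was 1.31 ± 0.07 (SE) for Cux2 (adjusted p 9.02e-31), 1.04 ± 0.07 for Rorb (adjusted p 5.77e-22) and 0.91 ± 0.05 for Rasgrf2 (adjusted p 1.55e-27). Fezf2 (0.27 ± 0.07, adjusted p 0.000442) and Tle4 (0.23 ± 0.04, adjusted p 7.80e-08) were slightly higher in the cortex. On the other side, Tshz2 had a log2 fold change of -1.04 ± 0.06 (adjusted p 7.69e-26), Etv1 of -0.50 ± 0.06 (adjusted p 1.09e-12), Bcl11b of -0.21 ± 0.07 (adjusted p 0.00760) and Foxp2 of -0.16 ± 0.07 (adjusted p 0.0431). Differences of at least 2-fold were rare among all genes, with 2.11% higher and 5.07% lower in the cortex. Cux2 and Rorb passed this limit upward and Tshz2 downward. Libraries of the 2 regions did not overlap for 3 genes, Cux2, Rorb and Rasgrf2, all higher in the cortex, as for 2.36% of all genes, and none of the 9 had all cortex libraries below, as 1.71% did. The call of Foxp2 was lost in females alone (adjusted p 0.0691), in males alone (adjusted p 0.285), with the DESeq2 Wald test (adjusted p 0.0547) and with all genes of at least 1 count (adjusted p 0.0511), and the call of Bcl11b was lost in females alone (adjusted p 0.0780).

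Between prefrontal cortex and hypothalamus, 6 genes were higher in the cortex and 3 lower, against 35.3% and 39.9% of all genes. Fezf2 had the greatest difference, 3.60 ± 0.08 on the log2 scale (12.1-fold, adjusted p 3.90e-56). Cux2 (1.53 ± 0.07, adjusted p 1.47e-35), Rorb (1.19 ± 0.07, adjusted p 1.74e-25) and Etv1 (1.19 ± 0.06, adjusted p 3.34e-32) were more than 2-fold higher, as were 7.18% of all genes. Bcl11b (0.32 ± 0.07, adjusted p 3.88e-05) and Rasgrf2 (0.26 ± 0.05, adjusted p 5.55e-06) were higher by less. Foxp2, which was more than 2-fold lower in the cortex as were 9.35% of all genes, had a log2 fold change of -1.15 ± 0.07 (adjusted p 2.60e-25). Tshz2 did not reach that limit, with a log2 fold change of -0.95 ± 0.06 (adjusted p 5.89e-24), and Tle4 differed by -0.09 ± 0.04 (adjusted p 0.0196), a call that was lost in males alone (-0.03, adjusted p 0.632). For Cux2, Fezf2 and Etv1 every cortex library was above every hypothalamus library, as for 7.36% of all genes, and the reverse held for none of the 9 and for 6.65% of all genes.

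Hippocampus and hypothalamus were also compared, and the libraries of each region are shared with the comparisons above. Of the 9 genes, 4 were higher in the hippocampus and 3 lower, against 33.7% and 35.2% of all genes. Those higher were Fezf2 (3.33 ± 0.08, adjusted p 3.60e-53), Etv1 (1.69 ± 0.06, adjusted p 1.54e-41), Bcl11b (0.52 ± 0.07, adjusted p 3.90e-10) and Cux2 (0.22 ± 0.07, adjusted p 0.00182). Fezf2 and Etv1 had every hippocampus library above every hypothalamus library, as for 4.35% of all genes, and the reverse held for none of the 9 and for 3.92% of all genes. Those lower were Foxp2 (-0.99 ± 0.07, adjusted p 2.05e-21), Rasgrf2 (-0.65 ± 0.05, adjusted p 1.21e-19) and Tle4 (-0.33 ± 0.04, adjusted p 1.64e-12). Rorb (0.15 ± 0.07, adjusted p 0.0695) and Tshz2 (0.10 ± 0.06, adjusted p 0.168) did not pass the test. With the animal as a replicate block, Rorb passed (0.16, adjusted p 0.0221). Cux2 was not called in males alone (0.16, adjusted p 0.110).

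**Figure D2:**
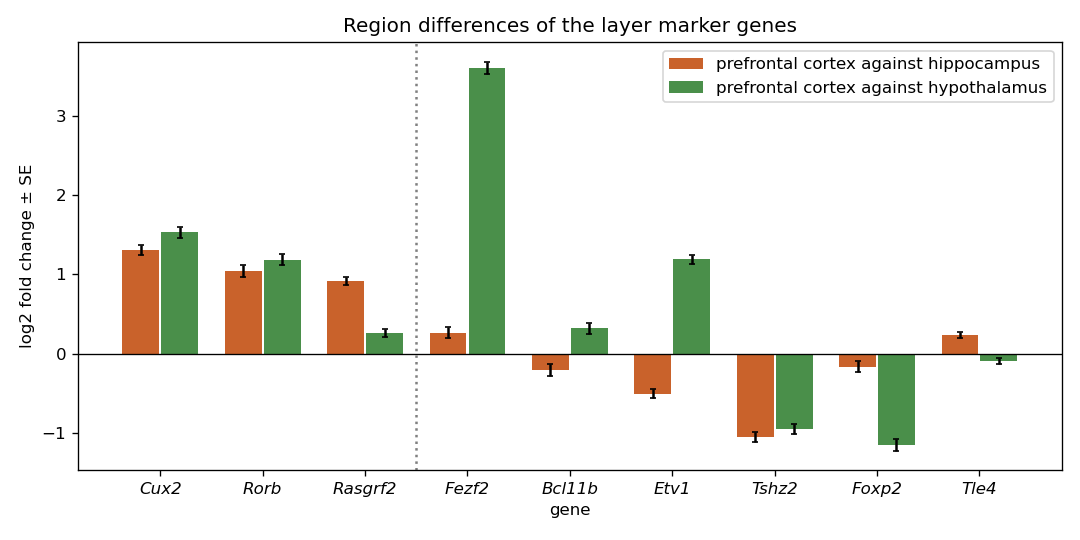
Log2 fold changes (bars, with SE) of the prefrontal cortex against the hippocampus and against the hypothalamus for the 9 genes, with a dotted line between upper and deep layer genes. Cux2, Rorb and Rasgrf2 lie above 0 in both comparisons, and Tshz2 and Foxp2 lie below 0 in both.

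The other genes of the cortical layers came from a list of 12 upper layer and 13 deep layer genes. Against the hippocampus, 7 of 12 upper layer genes were higher in the prefrontal cortex, 3 lower and 2 not called, with a median log2 fold change of 0.25. For the deep layer list, 5 of 13 genes were higher, 4 lower and 4 not called, with a median of 0.06, while the median of all genes was -0.01. By the same rule 30.5% of all genes were higher and 32.8% lower. Lamp5, a membrane protein of upper layer and some inhibitory neurons, had the greatest log2 fold change of the upper layer list (1.78 ± 0.07, adjusted p 2.61e-37), followed by Rspo1, a secreted Wnt agonist (1.35 ± 0.08, adjusted p 4.63e-26). The smallest were those of Mdga1, a cell adhesion molecule (-1.47 ± 0.07, adjusted p 2.41e-31), and Scnn1a, a sodium channel subunit (-0.59 ± 0.08, adjusted p 8.66e-11). Tbr1, a T-box factor of deep layer neurons, had the greatest of the deep layer list (1.29 ± 0.10, adjusted p 2.05e-19), followed by Sox5 (0.86 ± 0.04, adjusted p 1.07e-35), and Nxph4 (-0.76 ± 0.10, adjusted p 1.76e-10) and Crym (-0.65 ± 0.10, adjusted p 4.21e-08) the smallest.

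Against the hypothalamus, 7 of 12 upper layer and 8 of 13 deep layer genes of the lists were higher in the prefrontal cortex and 3 of each were lower, with medians of 0.32 and 0.78 against -0.03 for all genes. By the same rule 35.3% of all genes were higher and 39.9% lower. Lamp5 (3.004 ± 0.07, adjusted p 3.45e-52) and the LIM homeobox factor Lhx2 (2.25 ± 0.06, adjusted p 1.18e-52) were the greatest of the upper layer list, and Mdga1 (-1.85 ± 0.07, adjusted p 1.85e-38) and Otof (-0.80 ± 0.07, adjusted p 1.78e-16) the smallest. In the deep layer list, Tbr1 (3.66 ± 0.11, adjusted p 2.81e-45) and Cplx3, a complexin (2.48 ± 0.10, adjusted p 1.57e-37), were the greatest, and Nxph4 (-2.15 ± 0.10, adjusted p 1.15e-33) and Ntsr1, a neurotensin receptor (-1.32 ± 0.07, adjusted p 1.38e-31), the smallest.

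Within the prefrontal cortex, the genes differed in how much they varied among animals. The SD of log2 CPM over the 29 libraries was 0.34 for Cux2, 0.33 for Foxp2, 0.28 for Bcl11b and 0.26 for Tshz2, and it was 0.24 for Rorb and 0.23 for Rasgrf2. Tle4 (0.17), Fezf2 (0.16) and Etv1 (0.15) varied least, below the median of 0.22 over all genes tested. The library of animal 8 held the highest level of Cux2 (347 CPM), Rorb (147 CPM) and Tshz2 (10.1 CPM), and that of animal 7 the highest level of Rasgrf2 (344 CPM). In the library of animal 8 the 8 astrocyte genes of a list summed to 5716 CPM and 8 hippocampal neuron genes to 503 CPM, above the highest other cortex libraries (4467 and 414 CPM), and the part of these in its levels was not tested. The library of animal 10, one of the 3 high in striatal genes, held the highest level of Foxp2 (31.9 CPM) and of Bcl11b (138 CPM).

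To see which of the 9 genes varied together in the prefrontal cortex, the 36 pairs were correlated over the 29 libraries, 1 per animal, on log2 CPM. After Benjamini-Hochberg adjustment over the 36 pairs, 10 passed 0.05 in a permutation test, 8 with a positive and 2 with a negative Pearson r. Among pairs of a member with any other gene, 5.17% had an r as high as the lowest of these positive values (0.496) and 3.42% an r as low as the weaker of the negative values (-0.546). All 3 pairs of upper layer genes were called. Cux2 and Rorb had an r of 0.745 (permutation p 1e-05, the smallest that 100000 permutations can give, adjusted p 0.000180) and a Spearman rho of 0.585 (adjusted permutation p 0.00734). Cux2 and Rasgrf2 had an r of 0.735 (permutation p 2e-05, adjusted p 0.000240) and a rho of 0.712 (adjusted permutation p 0.000540). Rorb and Rasgrf2 had an r of 0.496 (permutation p 0.00728, adjusted p 0.0262), and their rho of 0.435 did not pass (adjusted permutation p 0.0884).

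Of the 15 pairs of deep layer genes, 3 were called, and they join Foxp2, Tle4 and Bcl11b. Foxp2 and Tle4 had an r of 0.744 (permutation p 1e-05, adjusted p 0.000180) and a rho of 0.764 (adjusted permutation p 0.000360). Bcl11b had an r of 0.652 with Foxp2 (permutation p 0.000130, adjusted p 0.00117, rho 0.634 with adjusted permutation p 0.00297) and of 0.613 with Tle4 (permutation p 0.000410, adjusted p 0.00295, rho 0.671 with adjusted permutation p 0.00144). Fezf2 and Etv1 were in no called pair.

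Between upper and deep layer genes, 4 of 18 pairs were called. Rasgrf2 was negatively correlated with Tle4 (r -0.573, permutation p 0.00110, adjusted p 0.00660; rho -0.571, adjusted permutation p 0.00936) and with Foxp2 (r -0.546, permutation p 0.00227, adjusted p 0.0113; rho -0.553, adjusted permutation p 0.0120). Tshz2 was positively correlated with Cux2 (r 0.546, permutation p 0.00252, adjusted p 0.0113) and Rorb (r 0.513, permutation p 0.00549, adjusted p 0.0220), but the rho of these pairs was 0.352 and 0.284 and did not pass (adjusted permutation p 0.203 and 0.350). The library of animal 8 carried much of both, since without it the r of Tshz2 was 0.353 with Cux2 and 0.227 with Rorb (adjusted permutation p 0.169 and 0.436). As a description, the mean standardized level of the 3 upper layer genes and that of the 6 deep layer genes had an r of -0.059 over the 29 libraries.

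Without the 2 libraries farthest from the median of the first gene of a pair, 4 of the 10 pairs were still called, with an r of 0.568 for Cux2 and Rorb, 0.699 for Cux2 and Rasgrf2, 0.739 for Foxp2 and Tle4 and 0.566 for Bcl11b and Tle4. The other 6 were no longer called without them, with an r of 0.482 for Bcl11b and Foxp2, -0.484 for Rasgrf2 and Tle4, -0.433 for Rasgrf2 and Foxp2, 0.311 for Rorb and Rasgrf2, 0.316 for Cux2 and Tshz2 and 0.104 for Rorb and Tshz2. The number of called pairs was 7 in females and 4 in males alone, and it was 7 without animal 7.

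The scaling of the libraries changed the balance of positive and negative pairs, an alternative tried after the data had been seen. When counts were divided by the library totals in place of TMM, 11 pairs were called, 6 positive and 5 negative, and all 5 negative pairs joined an upper with a deep layer gene. The r of Rasgrf2 and Tle4 was then -0.798 and that of Rasgrf2 and Foxp2 -0.683, and Rorb with Fezf2 (-0.570), Cux2 with Tle4 (-0.514) and Rasgrf2 with Bcl11b (-0.492) were also called. Among the positive pairs, the r was 0.731 for Foxp2 and Tle4, 0.676 for Cux2 and Rorb, 0.664 for Cux2 and Rasgrf2 and 0.628 for Bcl11b and Foxp2, and it was 0.536 for Bcl11b and Tle4 and 0.448 for Cux2 and Tshz2. More pairs of an upper with a deep layer gene were thus negative and called with library totals (5) than with TMM (2), while these 6 positive pairs were called with both.

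**Figure D3:**
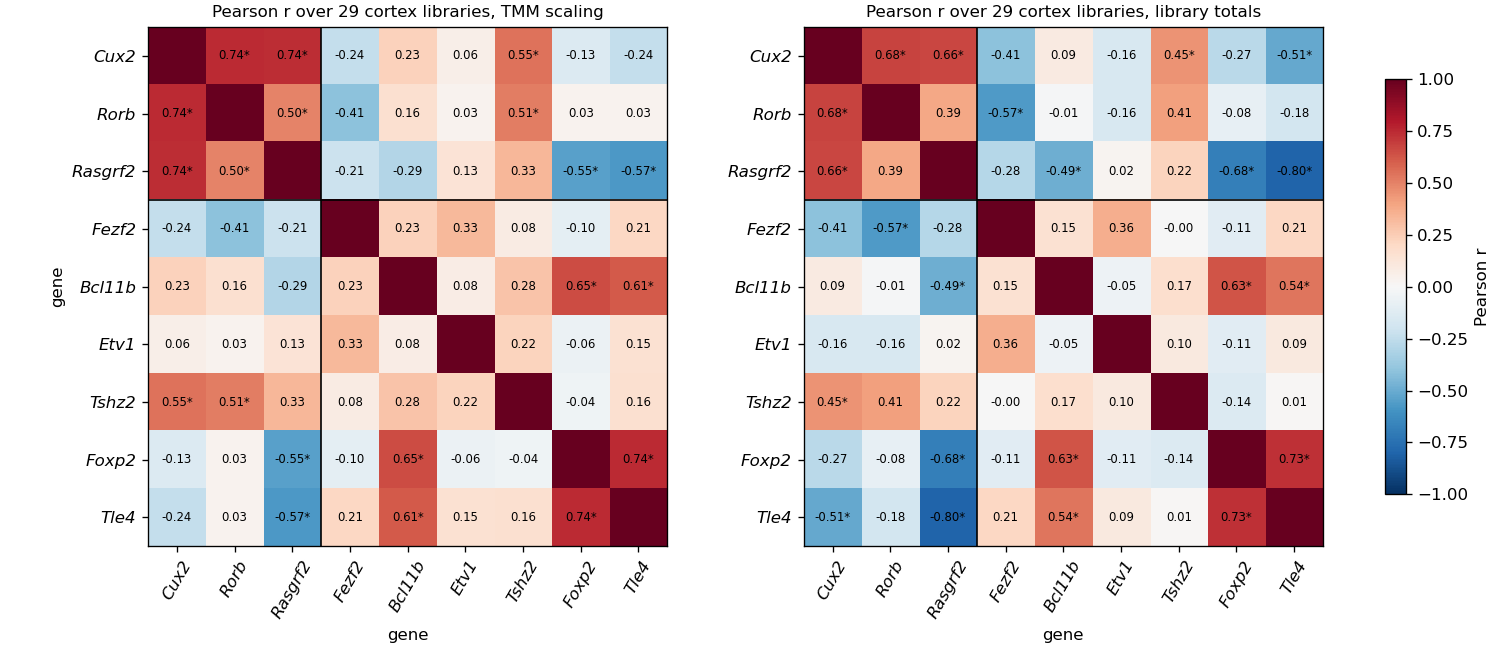
Pearson r of each pair of the 9 genes over the 29 prefrontal cortex libraries, on log2 CPM scaled by TMM (left) or by library totals (right), with an asterisk where the permutation p adjusted over the 36 pairs is under 0.05 and lines between upper and deep layer genes. The 3 upper layer genes form a positive block on the left, and Rasgrf2 has an r of -0.573 with Tle4 there and of -0.798 on the right.

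Set against all 19872 other genes kept by the filter, these pairs were of unequal rank. By r with Tle4, Foxp2 ranked 11th, and by r with Foxp2, Tle4 ranked 44th and Bcl11b 118th. For Cux2, Rorb ranked 371st and Rasgrf2 411th, and 6.47% of all genes had an r over 0.6 with Cux2. In the other direction, Cux2 ranked 126th by r with Rorb, for which 4.71% of all genes were over 0.6, and 19th by r with Rasgrf2, for which 1.69% were. The share over 0.6 was lower for Foxp2 (0.981%), Tle4 (0.790%) and Fezf2 (0.0503%).

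The 3 genes most like each member, by Pearson r of log2 CPM over the 29 prefrontal cortex libraries, were Cit (0.922), Man1c1 (0.906) and Plec (0.896) for Cux2, and H6pd (0.850), Atxn1 (0.847) and Tanc2 (0.827) for Rorb. For Rasgrf2 they were Zdhhc8 (0.806), Kalrn (0.802) and Igf2r (0.797). For Foxp2 they were the dopamine receptor gene Drd1 (0.870), Syndig1l (0.865) and the choline transporter gene Slc5a7 (0.865), which are known for their expression in the striatum. Bcl11b was most like Ripor2 (0.839), Adcy5 (0.832) and Rnf103 (0.829), of which the adenylyl cyclase gene Adcy5 is a striatal marker of the list used here. Tle4 was most like Sema5b (0.8003), Retreg1 (0.793) and Neto2 (0.787), Fezf2 like Rassf5 (0.684), Ywhag (0.671) and B4galt5 (0.668), Etv1 like Taf1 (0.798), Fam169a (0.770) and Kif2a (0.757), and Tshz2 like Rnf214 (0.803), Wwc2 (0.771) and Ash1l (0.771).

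The 9 genes were also correlated over the cortex libraries with the mean standardized level of 13 gene lists, with the total count and with the share of mitochondrial counts, which gave 135 relations. After adjustment over these, 20 were called. The share of all genes called with each list by the same rule is not given here. The counts of calls therefore cannot be read as particular to the 9 genes. The striatal list was called with 4 genes. Its r was 0.852 with Foxp2 (rho 0.818), 0.680 with Tle4 (rho 0.658), 0.602 with Bcl11b (rho 0.552) and -0.596 with Rasgrf2 (rho -0.512), with adjusted permutation p of 0.000450, 0.00108, 0.00945 and 0.0102 for r and 0.000675, 0.00513, 0.0303 and 0.0459 for rho. Without the 3 libraries high in striatal genes, a setting added after the data had been seen, the r was 0.778 with Foxp2 and 0.564 with Tle4 (adjusted permutation p 0.000900 and 0.0417), and the relations of Bcl11b (0.397) and Rasgrf2 (-0.472) were no longer called (adjusted permutation p 0.222 and 0.110). Without the 2 libraries farthest from the median of the striatal score, Foxp2 had an r of 0.810 and Tle4 of 0.607, both called.

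The myelin list moved with some of the same genes. Its r was 0.669 with Foxp2 (adjusted permutation p 0.00135), 0.549 with Tle4 (adjusted permutation p 0.0224) and -0.590 with Rasgrf2 (adjusted permutation p 0.0113). Only that of Foxp2 was still called without the 2 farthest libraries (0.623) and without the 3 libraries high in striatal genes (0.547). The summed level of the 8 myelin genes ranged from 2369 to 4497 CPM in the prefrontal cortex.

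When the striatal score was removed from each gene, the r of Foxp2 and Tle4 fell from 0.744 to 0.429 (adjusted permutation p 0.0822), and that of Rasgrf2 with Tle4 and Foxp2 moved to -0.286 and -0.091. The pairs of Bcl11b moved to 0.333 with Foxp2 and 0.347 with Tle4, neither of which was called. The r of Bcl11b rose from 0.234 to 0.525 with Cux2 and from 0.282 to 0.509 with Tshz2, and both were then called (adjusted permutation p 0.0280), so that 7 pairs were called in all, each of them positive. When the myelin score was removed, 7 pairs were also called, and Foxp2 with Tle4 (0.606, adjusted permutation p 0.00468) was among them. Rasgrf2 was then not called with Foxp2 (-0.252) or Tle4 (-0.370). With the 3 libraries high in striatal genes left out, 8 pairs were called, all positive. The positions of the punches relative to the cortical layers and the striatum are not given in the labels, and their part in these correlations was not tested.

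Of the other layer lists, that of the upper layers was called with all 3 upper layer genes, Cux2 (r 0.764, adjusted permutation p 0.000450), Rasgrf2 (0.696, adjusted permutation p 0.00101) and Rorb (0.614, adjusted permutation p 0.00579). The deep layer list was called with 4 of the 6 deep layer genes, Fezf2 (0.576, adjusted permutation p 0.0136), Tle4 (0.562, adjusted permutation p 0.0166), Foxp2 (0.551, adjusted permutation p 0.0199) and Bcl11b (0.498, adjusted permutation p 0.0406). Without the 2 farthest libraries, Cux2 (0.663) and Rorb (0.548) remained called with the upper layer list, and none of the 4 deep layer relations did, their r being 0.420 to 0.476. No upper layer gene was called with the deep layer list and no deep layer gene with the upper layer list. With library totals, however, Tle4 (-0.625) and Foxp2 (-0.577) were negatively related to the upper layer list, and Rorb (-0.589), Rasgrf2 (-0.567) and Cux2 (-0.529) to the deep layer list, all called. Within the classes, Rorb was then no longer called with the upper layer list (0.438), nor Bcl11b with the deep layer list (0.376), and the others still were.

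The hippocampal neuron list was called with Cux2 (0.787), Rorb (0.617), Tshz2 (0.538) and Bcl11b (0.489), the pallial glutamatergic list with Cux2 (0.525) and the thalamic list with Bcl11b (0.501). Among these 6, the rho was also called for both relations of Cux2 (0.618 and 0.560) and for no other, and without the 2 farthest libraries only the hippocampal relation of Cux2 was called (0.614). With library totals, too, only that relation was called among these 6 (0.711). Of the 8 genes of the hippocampal list, 2 were called higher and 6 lower in the prefrontal cortex than in the hippocampus. Its score is thus not made only of genes higher in the hippocampus. No member was called with the lists of interneurons, astrocytes, microglia, hypothalamic neurons, mitral cells or choroid plexus, nor with the total count (r -0.338 to 0.054) or the mitochondrial share (r -0.448 to 0.212). The lowest adjusted permutation p among these was 0.0865, for the mitochondrial share.

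Long transcripts moved with several of the genes, in a measure added after the data had been seen. In each library the median deviation of the genes with the longest exons (at least 6022 bases) was compared with that of the genes with the shortest (at most 2082 bases, the limits being the quartiles), and this length contrast ranged from -0.12 to 0.34 on the log2 scale over the cortex libraries, with animal 8 at 0.34. Its r, with p adjusted over 18 relations, was 0.739 with Cux2 (adjusted permutation p 0.000360), 0.687 with Rorb (adjusted permutation p 0.00516), 0.666 with Tshz2 (adjusted permutation p 0.00189), 0.550 with Bcl11b (adjusted permutation p 0.00720) and 0.484 with Rasgrf2 (adjusted permutation p 0.0225). Their rho was 0.556, 0.368, 0.531, 0.576 and 0.345, of which those of Rorb and Rasgrf2 did not pass. Without the 2 farthest libraries none of these was called, the r of Cux2 being 0.494 (adjusted permutation p 0.0761). Over all cortex libraries, the length contrast was not called with Etv1 (0.379), Tle4 (0.242), Foxp2 (0.127) or Fezf2 (0.071). All members but Fezf2 and Tle4 are themselves among the genes with the longest exons. A like contrast of genes rich and poor in G and C was called with Cux2 (0.502), Rasgrf2 (0.458) and Etv1 (-0.537), and also with none of them without the 2 farthest libraries. How many of all genes, or of the genes with the longest exons, were called with either contrast is not given here. The calls with these contrasts therefore cannot be read as particular to the layer genes. With the length contrast removed, the r of Cux2 and Tshz2 was 0.108, that of Rorb and Tshz2 0.102, that of Cux2 and Rorb 0.485 and that of Rasgrf2 and Tle4 -0.814, and 10 pairs were called, 5 of them negative. The part of RNA quality in these relations was not tested.

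**Figure D4:**
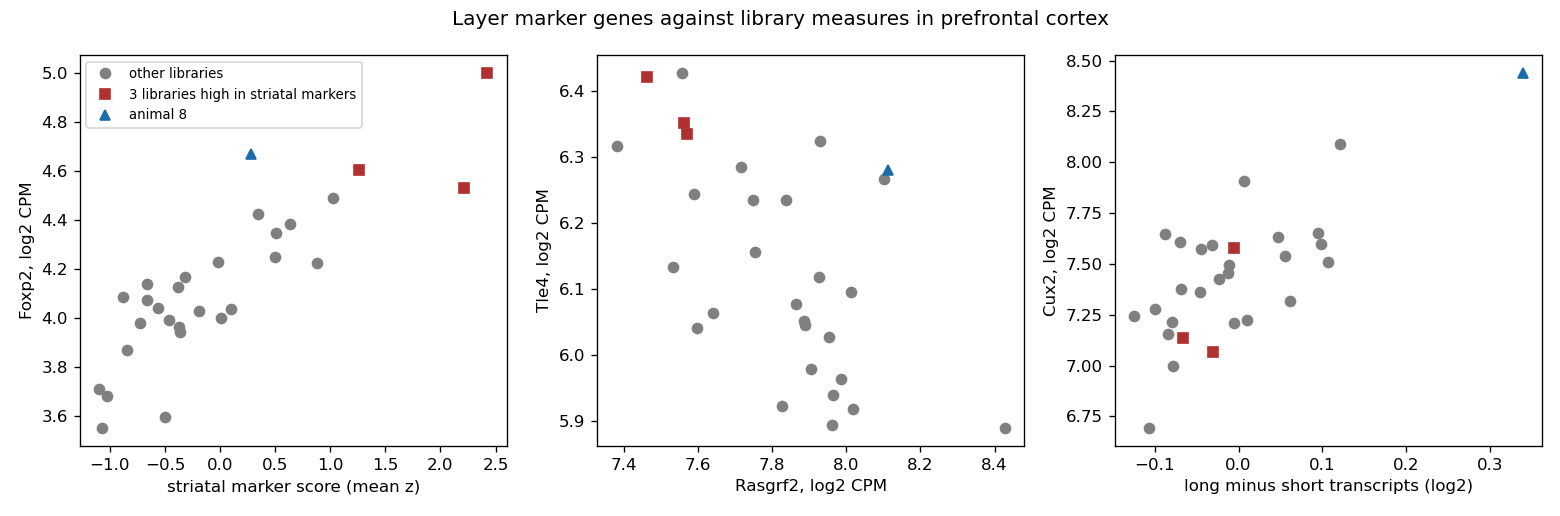
Each point is 1 of the 29 prefrontal cortex libraries: Foxp2 against the striatal marker score (left), Tle4 against Rasgrf2 (middle) and Cux2 against the contrast of long and short transcripts (right), all genes in log2 CPM. The 3 libraries high in striatal genes (squares) lie at the upper right of the left panel (r 0.852) and at high Tle4 and low Rasgrf2 in the middle (r -0.573), and animal 8 (triangle) lies far from the others on the right (r 0.739).

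Small and large social network sizes were then compared within each sex and region. None of the 9 genes had an adjusted p under 0.05 in any of these 6 comparisons with the quasi-likelihood test of edgeR, nor with the DESeq2 Wald test. Of all genes tested, edgeR called 0.0113% in the prefrontal cortex of females, 0.00552% in the hypothalamus of females and 0% in the other 4 comparisons. These shares stand for 2 genes and 1 gene and moved with the libraries used. With 1 library left out at a time, the count was 0 to 5 in the prefrontal cortex of females, the highest without animal 21 and 0 without animal 9 or 19. It was 0 to 14 in the hypothalamus of females, the highest without animal 5. At an unadjusted p under 0.05 there were 4 of 54 results for the 9 genes (7.41%). All 4 were among the 27 results of females (14.8%), where 9.59% of all genes passed in the prefrontal cortex, 12.2% in the hippocampus and 7.39% in the hypothalamus. The log2 fold changes did not exceed 0.35 in size in any comparison, and the farthest bound of a 95% interval was 0.65.

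Bcl11b was the gene with such a p in 2 regions. In the prefrontal cortex of females it was 68.6, 101, 102, 102, 110, 112 and 135 CPM with small and 71.4, 74.8, 79.8, 85.3, 90.8, 91.4 and 99.2 CPM with large network sizes. Of the 7 animals with small network sizes, 6 were above every animal with a large one, and 1 (animal 5) was below them all. The log2 fold change was 0.30 ± 0.11 (SE, adjusted p 0.478 with edgeR). In the hypothalamus of females Bcl11b was 49.6, 54.6, 56.9, 64.5, 69.5, 78.1 and 89.3 CPM with small and 55.0, 73.4, 74.4, 89.6, 92.3, 93.6 and 112 CPM with large network sizes, a log2 fold change of -0.35 ± 0.15 (adjusted p 0.644). The groups overlapped widely there, and the sign was opposite to that in the cortex.

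In the hippocampus of females, Rasgrf2 was 89.6, 96.6, 103, 105, 107, 117 and 129 CPM with small and 103, 119, 120, 124, 132, 137 and 142 CPM with large network sizes. The groups overlapped, with a log2 fold change of -0.23 ± 0.08 (adjusted p 0.299). Tle4 in the hypothalamus of females ranged from 68.1 to 81.8 CPM (median 73.2) with small and from 75.6 to 83.3 CPM (median 80.8) with large network sizes, with a log2 fold change of -0.09 ± 0.04 (adjusted p 0.674). No gene had an unadjusted p under 0.05 in males, where 2.52%, 3.88% and 2.90% of all genes passed in the prefrontal cortex, hippocampus and hypothalamus.

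The difference between the sexes in the effect of network size was tested directly, and 0 of 27 results passed the adjusted threshold, as did 0% of all genes in each region. At an unadjusted p under 0.05, the difference of female minus male log2 fold changes was -0.36 ± 0.17 for Rorb (adjusted p 0.662) and -0.30 ± 0.12 for Rasgrf2 (adjusted p 0.641) in the hippocampus and -0.54 ± 0.25 for Bcl11b in the hypothalamus (adjusted p 0.787). The unadjusted rule passed 7.37% of all genes in the hippocampus, 6.14% in the hypothalamus and 4.17% in the prefrontal cortex, where no member passed. For Bcl11b in the hypothalamus the log2 fold change was -0.35 in females and 0.20 in males.

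Females and males did not differ in any of the 9 genes past the adjusted threshold either, in 27 results, against 0.0976% of all genes called in the prefrontal cortex, 0.102% in the hippocampus and 0.117% in the hypothalamus. Etv1 in the prefrontal cortex ranged from 71.4 to 88.9 CPM in females and from 57.0 to 87.0 CPM in males, with a log2 fold change of 0.15 ± 0.05 (unadjusted p 0.00315, adjusted p 0.574 with edgeR). Rasgrf2 in the hippocampus had one of -0.13 ± 0.06 (unadjusted p 0.0363, adjusted p 0.811). At an unadjusted p under 0.05, 4.98% of all genes passed in the prefrontal cortex and 5.99% in the hippocampus, and 6.79% in the hypothalamus, where no member did.

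**Figure D5:**
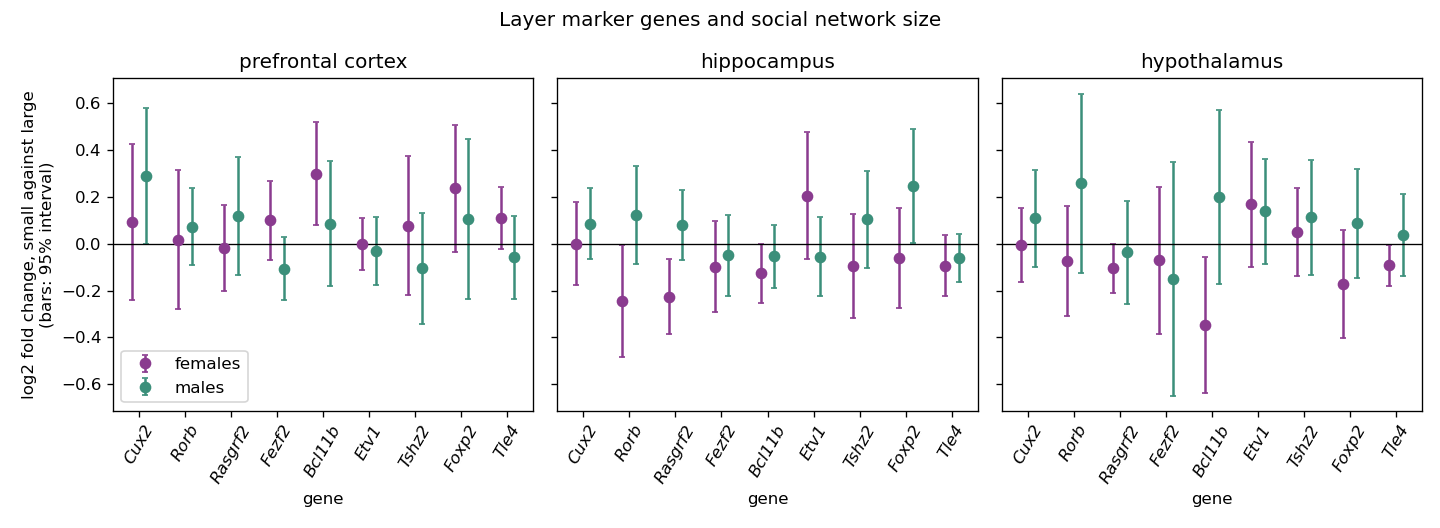
Log2 fold changes between network sizes (small over large), with 95% intervals, for the 9 genes in each region, in females and males. All values lie within 0.35 of 0, and the intervals of Bcl11b in females lie above 0 in the prefrontal cortex and below 0 in the hypothalamus. Those of Rorb and Rasgrf2 in the hippocampus and of Rasgrf2 and Tle4 in the hypothalamus of females also lie below 0. That of Foxp2 in the hippocampus of males lies above 0. For Rorb, Foxp2 and hypothalamic Rasgrf2 the unadjusted p of edgeR was nevertheless above 0.05.

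The other layer genes gave no called difference between small and large network sizes, with 0 of 12 upper layer and 0 of 13 deep layer genes in each of the 6 comparisons. At an unadjusted p under 0.05 there were 3 upper layer genes of the list in the prefrontal cortex of females (9.59% of all genes), 4 upper and 2 deep layer genes in the hippocampus of females (12.2% of all genes) and 3 deep layer genes in the hypothalamus of females (7.39% of all genes). In males there were 1 deep layer gene in the hippocampus (3.88% of all genes) and 2 upper layer genes in the hypothalamus (2.90% of all genes). The striatal sum in the prefrontal cortex had a median of 720 CPM in females with small and 559 CPM in females with large network sizes (456 to 948 and 460 to 791 CPM). In males the medians were 579 with small and 629 with large network sizes (512 to 1451 and 446 to 1323 CPM). Its part in the level of Bcl11b in females was not tested.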

How the data were processed

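Per the labels, RNA of punched brain regions was made into libraries with an NEBNext Ultra kit. The authors mapped the paired-end reads with STAR to the mouse genome (GRCm38, given as mm10 in the processing notes) and counted them per gene with HTSeq, and the deposited values are these raw counts for 35275 genes in 86 libraries, not normalized. The annotation release and the strand setting of the counting are not given in the sources used here. GENCODE vM21 gave symbols, positions and exon lengths, and 34490 identifiers were found there. No 2 libraries were identical, and Xist and Ddx3y matched the labelled sex in 86 of 86 libraries.

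Groups came from the labels, and the animal number from the sample titles. Nothing in the labels says that animals were housed or extracted in batches. The members and gene lists were chosen with earlier results of these data known. Counts were tested with edgeR 4.0.16 in R 4.3.3 (TMM, filterByExpr with a minimum count of 10, a total of 15 and a proportion of 0.7, quasi-likelihood test, Benjamini-Hochberg adjustment over all genes tested, threshold 0.05). Regions were compared in 1 fit of 12 group means. Network sizes were compared with the 2 groups concerned only. DESeq2 1.42.0 was an alternative. Levels are CPM scaled by TMM over all libraries. In the prefrontal cortex, Pearson r and Spearman rho of log2(CPM + 0.1) were tested by two-sided permutation (100000 permutations). The score of a gene list is the mean of its standardized log2 values, and a score was removed by taking the residuals of a linear fit. Besides the 9 members, named genes are the members with an unadjusted p under 0.05, the 3 genes most like each member, and the 2 highest and 2 lowest of each other layer list. The 95% intervals of log2 fold changes are normal approximations from the SE. Both tests were checked on simulated data.

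Libraries of 1 animal deviated together. The correlation of their deviations from the group means had a median of 0.381 between prefrontal cortex and hippocampus, 0.395 between prefrontal cortex and hypothalamus and 0.367 between hippocampus and hypothalamus, and was over 0.1 in all 85 pairs. The animal therefore pairs the regions, and a fit with the animal as a replicate block was an alternative. Sequences of promoter windows came from RefSeq (GRCm38.p6). Alternatives were another normalization, no filter on low counts, other samples and covariates, and leaving out 1 animal at a time. The number of counts limits the precision of each level to counting error, which is small at these depths beside the spread between animals.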

Additional observations from a re-analysis of the deposited data

Results flagged for a closer look

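In groups of 7 or 8 libraries, 10 values lay farther from the rest of their group than Dixon's test allows at 95% (critical values 0.568 and 0.526), on the CPM scale or on the log2 scale. Of these, 3 passed on both scales, 5 on CPM only and 2 on log2 only. The CPM scale was added after the data had been seen. Each scale was tested in 108 groups, and chance gives about 1 in 20 groups. On both scales, Rorb was 147 CPM in the prefrontal cortex library of animal 8 against 63.9 to 77.6 CPM in the other 6 females with small network sizes, and it was 39.6 CPM in the hypothalamus library of animal 29 against 31.7 to 34.3 CPM in the other males with large network sizes. In that hypothalamus library the thalamic neuron genes summed to 840 CPM, the second highest of the region. Low values of Bcl11b were 83.0 CPM in the hippocampus of animal 5 against 98.0 to 109 CPM in the other females with small network sizes, on both scales, and on log2 only 68.6 CPM in the prefrontal cortex of the same animal against 101 to 135 CPM and 46.6 CPM in the hypothalamus of animal 6 against 71.4 to 95.7 CPM in the other males with small network sizes. On CPM only, the prefrontal cortex library of animal 8 was also high in Cux2 (347 CPM against 128 to 198 CPM) and Tshz2 (10.1 CPM against 4.90 to 7.004 CPM). Also on CPM only, Etv1 in the hippocampus was 201 CPM in animal 23 against 89.9 to 134 CPM in the other females and 121 CPM in animal 7 against 93.04 to 106 CPM in the other males with small network sizes, and Tle4 in the hypothalamus was 93.8 CPM in animal 11 against 63.9 to 75.9 CPM in the other males with large network sizes. The prefrontal cortex library of animal 5 was also lowest of the region in the summed myelin genes (2369 CPM, others 2500 CPM or more) and second lowest in the striatal genes (456 CPM), and its hippocampus library was lowest in the hippocampal neuron genes (455 CPM, others 532 CPM or more). The part of these in the level of Bcl11b was not tested.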

How the results depend on the processing

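Of 216 alternative values of the region log2 fold changes, 208 kept the direction and the side of the threshold, 7 were no longer called and 1 became called, and none reversed. The replicate block left the counts at 5 higher and 4 lower in the prefrontal cortex against the hippocampus and at 6 and 3 against the hypothalamus, and changed only the call of Rorb between hippocampus and hypothalamus (0.16). In females alone 2 members, not 4, were lower in the prefrontal cortex than in the hippocampus. No called member for network size, sex or their interaction was found under any alternative or with any animal left out. Called pairs numbered 10, and 4 in males alone, 4 without the 2 farthest libraries and 7 to 11 with each animal left out (7 without animal 7, 8 without animal 8). Called relations with lists numbered 20, and 6 without the 2 farthest libraries. These settings hold fewer libraries, and apart from that the cause was not tested. Of 415 alternative values of the called pairs 42 were no longer called, and of 85 of the relations 25. The settings without libraries high in striatal genes, with scores or contrasts removed and with library totals were chosen after seeing the data.

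For network size in females, DESeq2 called 74 genes in prefrontal cortex, 95 in hippocampus and 43 in hypothalamus, where edgeR called 2, 0 and 1, but no member. The study is limited to 7 or 8 animals per group, and a change in a member smaller than the intervals given would have been missed. The median of all genes moved by less than 0.1 on the log2 scale under every scaling of the region comparisons.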

Other observations

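The hippocampus library of animal 23, a female with a small network size, held the highest hippocampal level of Etv1 (201 CPM). Among the hippocampus libraries it was also highest in the summed interneuron genes (1157 CPM, others at most 1124 CPM), thalamic neuron genes (670 CPM, others at most 649 CPM), mitral cell genes of the olfactory bulb (22.6 CPM, others at most 18.2 CPM) and other upper layer genes (825 CPM, others at most 741 CPM), and lowest in the pallial glutamatergic genes (3209 CPM, others 3374 CPM or more) and other deep layer genes (326 CPM, others 369 CPM or more). The prefrontal cortex library of animal 7, which had the highest Rasgrf2, was the highest of its region in the other upper layer genes (1188 CPM, others at most 1094 CPM) and in the pallial glutamatergic genes (8029 CPM, others at most 7440 CPM). The choroid plexus genes, at a median of 8.31 CPM in the prefrontal cortex, reached 449 CPM in 1 library. These libraries were singled out after their values were seen.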
